A study of Homo sapiens with 132 samples.

Results

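The response to afatinib was compared between NCI-N87 and MKN7 cells, established gastric cancer cell lines that both carry high levels of ERBB2 (HER2) mRNA. The comparison used 12 of the 132 libraries of the series. They were 3 replicates each of untreated NCI-N87 cells, NCI-N87 cells treated with 0.5 μM afatinib for 24 h, untreated MKN7 cells at 24 h and MKN7 cells treated in the same way. The measure was the difference between the 2 log2 fold changes (log2FC), that of NCI-N87 minus that of MKN7, in each gene. A positive difference therefore means a larger rise or a smaller fall in NCI-N87 cells. The controls were untreated and not solvent-treated, so the solvent of afatinib is part of the treatment in both lines. Each line is a single line grown from a metastasis, and the design describes the replicates as biological triplicates. A difference between them therefore belongs to these 2 lines. MKN7 cells were plated at a lower density than NCI-N87 cells.

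Afatinib binds covalently to the kinase domains of EGFR, ERBB2 and ERBB4 and blocks their signalling. Such receptors feed the MAPK cascade, which drives genes for early transcription factors and for its own feedback inhibitors, and the PI3K and AKT cascade, which restrains FOXO transcription factors. Both cascades lead to cyclin D, release of E2F transcription factors and entry into S phase. Genes of DNA replication are typical E2F targets. Genes of mitosis are switched on later in the cycle and often carry a CHR element (cell cycle genes homology region) near their start.

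The 12 libraries held between 47085013 and 58122812 counts, so that 3 counts correspond to 0.0516 to 0.0637 CPM (counts scaled to the library total, TMM-normalized below), which covers counting error only. Gastric epithelial markers were high in all 12 libraries (KRT8 at least 2028 CPM, EPCAM at least 324), and of the leukocyte markers PTPRC was at most 0.509 CPM and CD3E at most 0.0608 CPM. CD79A was at 2.27 to 7.17 CPM in NCI-N87 cells. Of the fibroblast and endothelial markers, COL1A1 reached 30.5 CPM, VWF 3.52 CPM in NCI-N87 cells, and the others at most 1.22 CPM. The summed endothelial markers were at 1.22, 1.31 and 1.47 CPM in untreated and at 4.28, 3.26 and 3.25 CPM in treated NCI-N87 cells, against 0.46 to 1.49 CPM in MKN7 cells. The response differed between the lines for the fibroblast marker COL3A1, with 0, 2 and 0 counts in untreated and 31, 13 and 19 counts in treated NCI-N87 cells, and for PTPRC (difference -2.06, and -1.69, adjusted p = 0.0723, without untreated MKN7 replicate 3). The part of other cell types in the results was not tested. The library of untreated MKN7 cells replicate 3 stood apart. In it, 103 of 12084 genes were more than 2-fold from both other replicates on the same side, against 2 to 44 of 11859 to 12603 genes in the other 11 libraries. Many results that rest on this library are given with and without it, or with its counts. The differences of some genes that stood off in it, such as TENM3, FOSL1, GATA6 and CCNE1, are given with it alone. In untreated MKN7 replicates 1 to 3, TENM3 had 10817, 13107 and 5040 counts and FOSL1 13205, 11779 and 23816. GATA6 had 1007, 720 and 545 counts there and CCNE1 10971, 9823 and 16325.

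Afatinib changed more genes in NCI-N87 than in MKN7 cells. A gene was called at a false discovery rate (FDR, Benjamini-Hochberg, edgeR) below 0.05 and an absolute log2 value above 1, the selection criteria of the study. Of 20739 genes tested, 5896 (28.4%) were called in NCI-N87 cells, 3990 (19.2%) higher and 1906 (9.19%) lower than in untreated cells. In MKN7 cells 2539 genes (12.2%) were called, 1915 (9.23%) higher and 624 (3.01%) lower. The response itself differed for 2312 genes (11.1% of those tested), with 1286 positive (6.2%) and 1026 negative differences (4.95%). With the FDR alone 27.8% passed, 14.1% with a positive and 13.8% with a negative sign. The median difference over all genes tested was 0.04, and TMM normalization with an NCI-N87 library as the reference moved it by -0.11 and gave 1074 positive and 1260 negative differences. Without untreated MKN7 replicate 3, 1325 differences were positive and 962 negative.

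Most of the called differences came from a change that was called in NCI-N87 cells alone. Among the 1286 positive differences, 886 genes rose in NCI-N87 cells and were not called in MKN7, and 115 rose in both lines. For 104 genes the call was a fall in MKN7 cells alone, and 33 rose in NCI-N87 and fell in MKN7. Among the 1026 negative differences, 522 genes fell in NCI-N87 cells alone, 220 rose in MKN7 cells alone, 63 fell in both lines and 31 fell in NCI-N87 and rose in MKN7. In neither line called were 142 genes with a positive and 185 with a negative difference. In the other direction, 4513 genes were called in NCI-N87 and not in MKN7 cells, and the difference passed the criteria for 1408 (31.2%) of them. A call in NCI-N87 cells and its absence in MKN7 cells was thus no test of a difference. Of the 1319 genes called in both lines with the same sign, the 95% interval of the difference lay within -1 and 1 for 305.

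**Figure D1:**
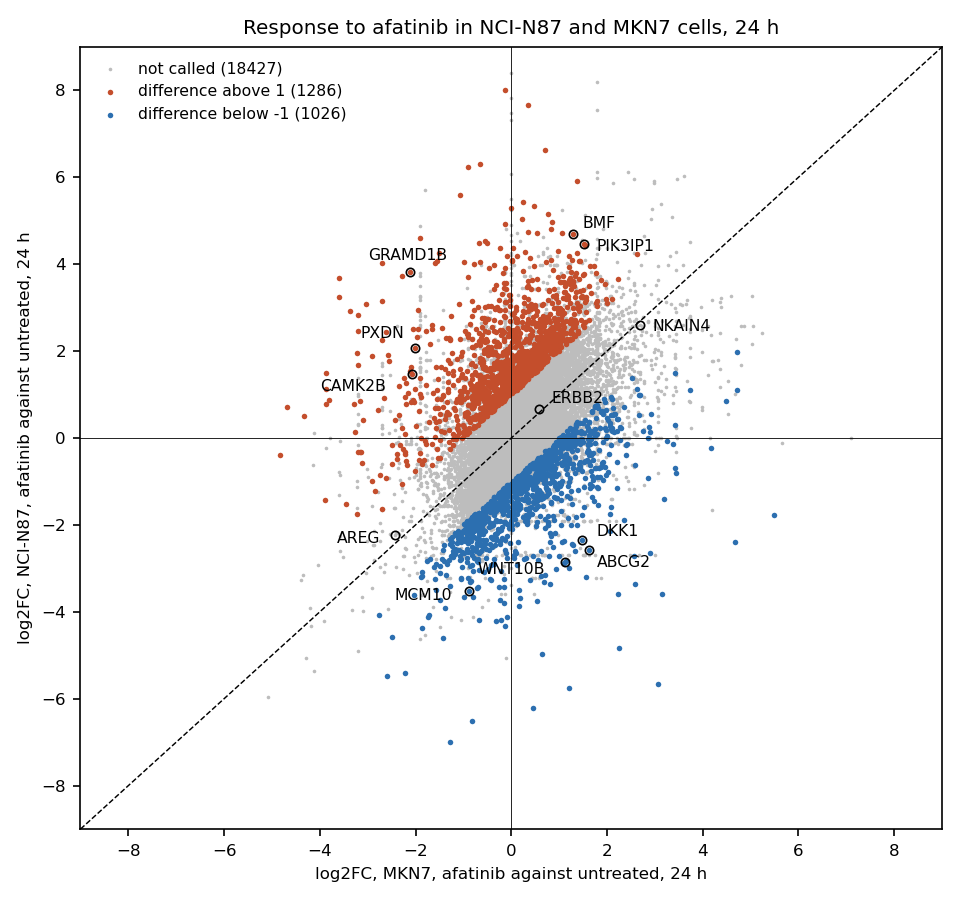
Log2FC of afatinib against untreated cells after 24 h in MKN7 (x axis) and NCI-N87 cells (y axis), 1 point per gene tested; the dashed line marks equal responses. The 1286 positive differences (red) lie above it and the 1026 negative ones (blue) below it, while AREG, NKAIN4 and ERBB2 lie close to it.

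Genes of DNA replication fell in both lines and fell further in NCI-N87 cells. All 34 genes of this list were tested. In 24 of them the difference was called, each negative, where 4.95% of all genes had a called negative difference. Without the limit on the size, 31 passed the FDR, against 13.8% of all genes. The median log2FC was -1.81 in NCI-N87 and -0.69 in MKN7 cells, and the median difference was -1.13 beside 0.04 for all genes. Summed over the list, the level was 3648, 3665 and 3799 CPM in untreated NCI-N87 cells and 858, 873 and 1050 CPM after afatinib. For MKN7 cells the sum was 3652, 3594 and 3977 CPM without and 2201, 2124 and 2691 CPM with afatinib. The untreated lines thus overlapped in this sum, and the treated NCI-N87 libraries lay below the treated MKN7 libraries.

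The largest difference of the list was that of MCM10 (ENSG00000065328, chromosome 10, 13161554 to 13211104), a factor that helps to activate the replicative helicase. Its level was 64.2, 71 and 66.6 CPM in untreated and 5.72, 5.83 and 5.93 CPM in treated NCI-N87 cells. In MKN7 cells it was at 51, 50 and 50.4 CPM and, after afatinib, at 27.2, 24.4 and 30.8 CPM. Treated and untreated libraries did not overlap in either line. The log2FC was -3.53 (SE 0.09) in NCI-N87 and -0.88 (SE 0.08) in MKN7 cells, a difference of -2.65 (SE 0.11, adjusted p = 4.93e-20). CDC6, which loads the helicase at origins, was at 376, 386 and 407 CPM in untreated and at 47.5, 48.5 and 55 CPM in treated NCI-N87 cells. Untreated MKN7 cells had 126, 118 and 131 CPM and treated ones 65.9, 61.6 and 77.9 CPM. Its difference was -2.08 (SE 0.13, adjusted p = 1.89e-15). The helicase subunits MCM2 to MCM7 had differences from -2.24 (MCM5) to -1.51 (MCM7), and the helicase partners GINS2 and CDC45 of -2.43 and -1.95. The clamp PCNA (-1.11), its loader subunits RFC2, RFC3 and RFC4 (-1.22, -1.68 and -1.16), and the polymerase subunits POLA2, POLE, POLE2 and POLA1 (-1.30, -1.05, -1.02 and -1.0) followed with smaller differences. The single-stranded DNA binding subunits RPA1, RPA2 and RPA3 and the licensing factor CDT1 were not called. The flap endonuclease gene FEN1 held 2 to 10 counts in each of the 12 libraries, so a difference could hardly be detected at this depth. GINS4 and POLA1 lay at the limit of 1 and lost the call when only the compared groups were fitted, and POLA1 also without untreated MKN7 replicate 3 (-0.95).

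In the mitosis list the median difference was -0.24, with a median log2FC of -0.97 in NCI-N87 and of -0.74 in MKN7 cells. Of 34 genes tested, the difference was called for 1, ANLN (difference -1.05, an actin-binding protein of the cleavage furrow), and 13 passed the FDR alone with a negative sign, against 13.8% of all genes. Without untreated MKN7 replicate 3 the difference of ANLN was -0.97, under the limit. At an FDR below 0.05, 32 of these genes were lower in treated NCI-N87 and 33 in treated MKN7 cells, against 26% and 21.1% of all genes. PLK1, a mitotic kinase, had a log2FC of -0.92 in NCI-N87 and -1.07 in MKN7 cells, and the 95% interval of its difference ran from -0.16 to 0.45. CDC20, an activator of the anaphase-promoting complex, had -0.82 and -0.72, with an interval from -0.50 to 0.30.

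**Figure D2:**
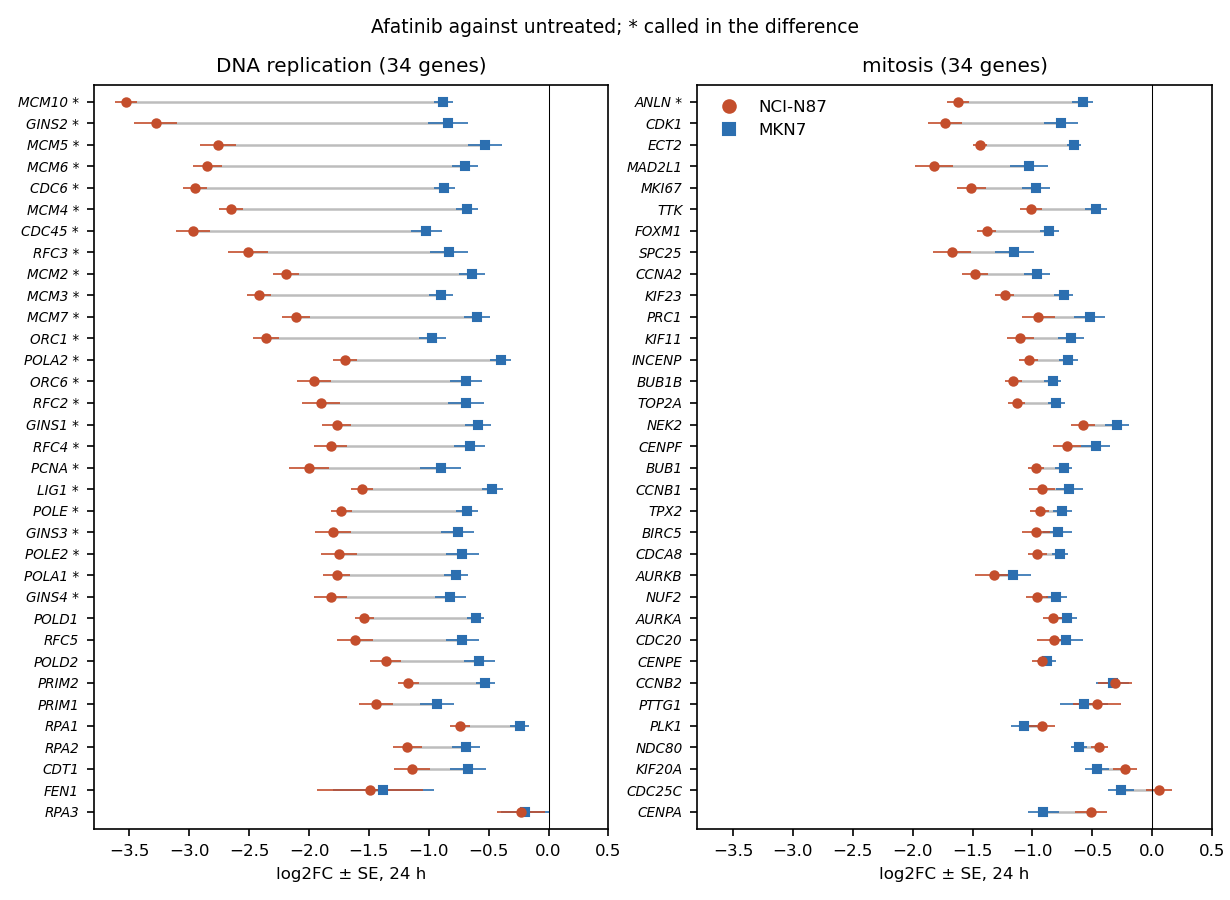
Log2FC ± SE of afatinib against untreated cells at 24 h for the genes of the DNA replication and mitosis lists in NCI-N87 (circles) and MKN7 cells (squares), ordered by their difference; an asterisk marks a called difference. In the replication list 24 of 34 genes are marked, with MCM10 at the top, and in the mitosis list 1 of 34, ANLN.

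Both lists were also compared in their promoters, because the genes of each list moved together. The 250 bases before each gene start were taken from RefSeq (GRCh38.p14) and searched on both strands for the E2F words TTTCGCGC, TTTGGCGC and TTTCCCGC and for the CHR words TTTGAA and TTCGAA. E2F words on opposite strands can overlap. The table held promoters of 29 of the 34 replication genes and of 29 of the 34 mitosis genes. An E2F word stood in 30.6% of 36 promoters of replication genes and in 5.56% of 36 promoters of mitosis genes. The share was 2.32% of all 35116 promoters, 3.08% for tested protein-coding genes and 4.25% for those with a called negative difference. By gene, 11 of the 29 replication genes held an E2F word. A CHR word stood in 2.78% of the former promoters and in 52.8% of the latter. Its share was 14.3% of all promoters, 10.7% for tested protein-coding genes and 11.3% for those with a called negative difference. A CHR word was held by 17 of the 29 mitosis genes. Shown are the promoters of MCM6 and GINS2, which had large differences, and of PLK1 and CDC20, which had none detected. They are examples that each hold the word of their list, which many genes of either list lack. They run 5′ to 3′ on the strand of the gene, with both kinds of word in capitals.
MCM6 (minus strand, chr2:135876444-135876693): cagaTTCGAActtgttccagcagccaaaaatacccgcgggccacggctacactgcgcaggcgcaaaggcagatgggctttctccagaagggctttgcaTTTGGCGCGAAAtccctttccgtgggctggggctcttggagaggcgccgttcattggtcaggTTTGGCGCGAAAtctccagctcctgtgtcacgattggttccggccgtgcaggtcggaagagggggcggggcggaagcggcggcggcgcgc
GINS2 (minus strand, chr16:85688955-85689204): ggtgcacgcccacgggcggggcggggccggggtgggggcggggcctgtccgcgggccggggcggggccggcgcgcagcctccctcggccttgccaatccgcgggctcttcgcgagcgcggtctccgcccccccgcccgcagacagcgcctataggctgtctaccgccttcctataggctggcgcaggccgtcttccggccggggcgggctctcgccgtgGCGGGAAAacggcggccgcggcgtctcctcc
PLK1 (plus strand, chr16:23678639-23678888): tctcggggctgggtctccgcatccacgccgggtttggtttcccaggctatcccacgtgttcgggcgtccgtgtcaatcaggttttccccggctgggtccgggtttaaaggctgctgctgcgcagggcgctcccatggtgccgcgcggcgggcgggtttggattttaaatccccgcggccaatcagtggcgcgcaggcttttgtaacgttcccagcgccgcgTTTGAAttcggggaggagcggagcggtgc
CDC20 (plus strand, chr1:43358731-43358980): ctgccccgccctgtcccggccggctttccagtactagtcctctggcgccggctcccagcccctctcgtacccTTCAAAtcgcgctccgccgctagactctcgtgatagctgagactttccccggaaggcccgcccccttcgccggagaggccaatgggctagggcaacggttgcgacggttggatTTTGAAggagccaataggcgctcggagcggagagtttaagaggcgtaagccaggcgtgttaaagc
The MCM6 promoter held E2F words on both strands at 2 places and a CHR word far from the start, and the GINS2 promoter an E2F word that begins 31 bases before the start. In the PLK1 promoter a CHR word began 29 bases before the start. CDC20 had CHR words that began 178 and 65 bases before it. These are matches of letters and not measured binding.

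Of 20 tested control genes of the step from G1 to S, 8 had a called negative difference, against 4.95% of all genes, and 0 a positive one. The median difference was -0.40, and 10 negative and 2 positive differences passed the FDR alone, against 13.8% and 14.1% of all genes. The 8 genes were the phosphatase CDC25A (-1.77), the transcription factors E2F1, E2F2, E2F3 and E2F7 (-1.65, -1.51, -1.12 and -1.34), the cyclins CCNE1 and CCNE2 (-1.16 and -1.61), and RBL1 (-1.27), a relative of the retinoblastoma protein. E2F1 was at 107, 116 and 109 CPM in untreated and at 20.8, 21.4 and 24.7 CPM in treated NCI-N87 cells. The MKN7 libraries were at 198, 194 and 199 CPM without and at 122, 105 and 145 CPM with afatinib. CCND1, the cyclin D1 gene, fell in both lines (log2FC -1.92 in NCI-N87 and -2.10 in MKN7), and the interval of its difference ran from -0.24 to 0.61. In nucleotide synthesis, 5 of 23 genes had a called difference, all negative, against 4.95% of all genes. The FDR alone was passed by 19 with that sign, against 13.8% of all genes. RRM2, a subunit of ribonucleotide reductase, had a difference of -2.12 (SE 0.21) and CTPS1, a CTP synthase, of -1.74. PRPS1, which makes the ribose donor of nucleotides, fell in NCI-N87 cells alone (log2FC -1.71 and -0.04).

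Differences in ribosome biogenesis and in metabolism were mostly negative as well. Of 28 tested genes for ribosome biogenesis, 5 had a called negative difference, against 4.95% of all genes. The FDR alone was passed by 19 with a negative sign, against 13.8% of all genes. The median log2FC was -1.68 in NCI-N87 and -0.83 in MKN7 cells. Many of these differences lay close to 1. The count was 10 without untreated MKN7 replicate 3, 11 with an NCI-N87 library as the reference of TMM, and 7 to 12 when a replicate was left out. DDX21, an RNA helicase of the nucleolus, had a log2FC of -2.21 in NCI-N87 and of -1.05 in MKN7 cells. Of 21 glycolysis genes, 4 were called, all with a negative difference, against 4.95% of all genes: PFKP (-1.89), PKM (-1.61), HK2 (-1.56) and LDHA (-1.31).

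Genes for the synthesis of cholesterol and fatty acids had a median log2FC of -0.65 in NCI-N87 and of 0.10 in MKN7 cells. The difference was called for 6 of 23 genes, all negative, against 4.95% of all genes. The FDR alone was passed by 17 with a negative sign, against 13.8% of all genes. SCD, a desaturase of fatty acids, was at 287, 310 and 272 CPM in untreated and at 62.8, 72.7 and 63.3 CPM in treated NCI-N87 cells. The MKN7 libraries were at 170, 196 and 170 CPM without and at 158, 143 and 150 CPM with afatinib. Its difference was -1.88 (SE 0.21, adjusted p = 6.56e-09). The enzymes of cholesterol synthesis HMGCS1, SQLE and DHCR7 had differences of -1.64, -1.48 and -1.02. HMGCS1 passed the FDR with a higher level in treated MKN7 cells (log2FC 0.52, under the limit of 1), against -1.12 in NCI-N87 cells. A list of ATF4 targets and genes of endoplasmic reticulum stress held 20 tested genes. Of these, 5 had a called negative and 2 a called positive difference, against 4.95% and 6.2% of all genes. Among the negative ones were the amino acid transporters SLC7A5 (-1.64), SLC7A11 (-1.46) and SLC3A2 (-1.17) and the chaperone HSPA5 (-1.13). DDIT4 and SESN2, which restrain mTORC1, had positive differences of 3.43 and 1.04. SESN2, close to the limit of 1, had 520, 668 and 758 counts in untreated and 860, 873 and 889 in treated NCI-N87 cells. In MKN7 cells SESN2 had 1142, 1432 and 1214 counts without and 781, 919 and 788 with afatinib. DDIT4 was at 14, 10.4 and 17.5 CPM in untreated and at 96.2, 54.4 and 80.4 CPM in treated NCI-N87 cells. In MKN7 cells it was at 44.1, 40.5 and 45.6 CPM and, after afatinib, at 25.6, 19.7 and 21.7 CPM.

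**Figure D3:**
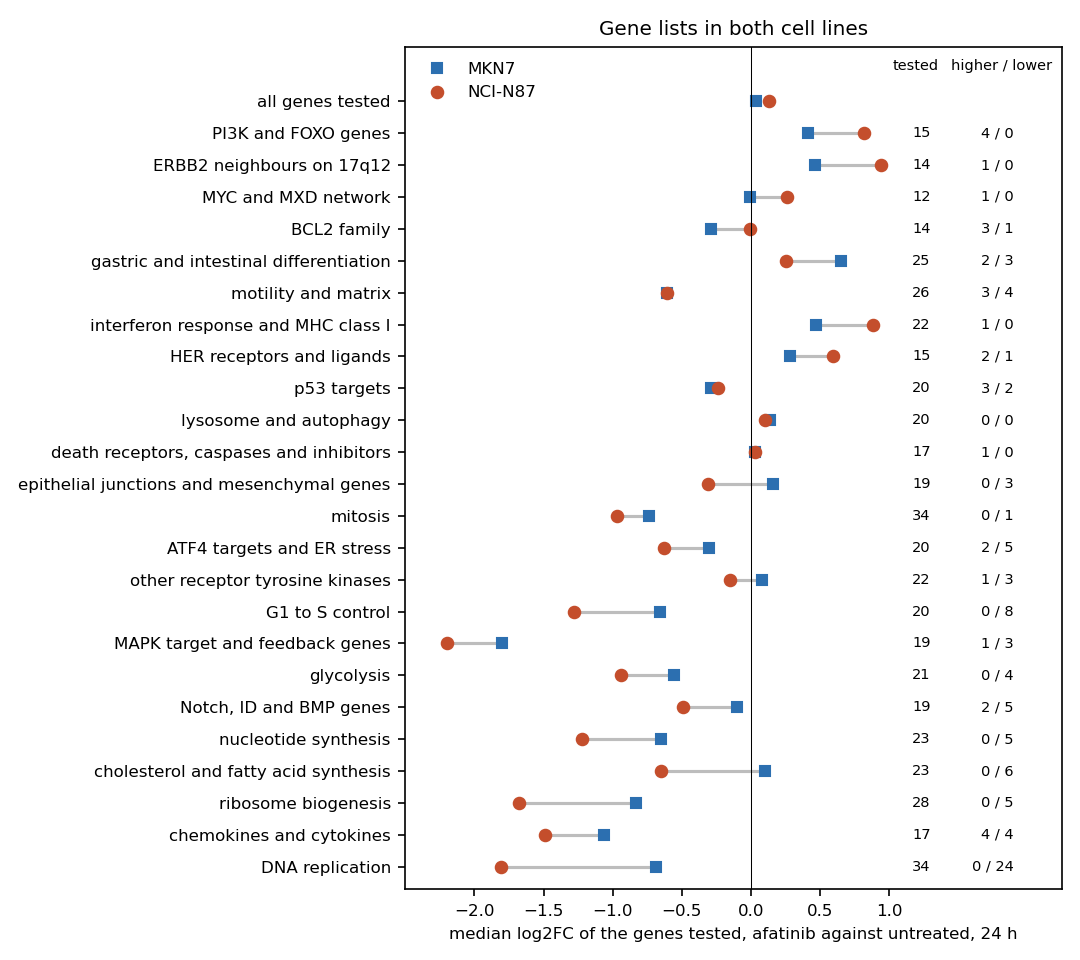
Median log2FC of afatinib against untreated cells at 24 h over the tested genes of each of 24 lists and over all genes, in NCI-N87 (circles) and MKN7 cells (squares). Numbers at the right give the genes tested and those with a called positive / negative difference; DNA replication has 0 / 24 of 34 and a median difference of -1.13.

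In 64 genes the effect of afatinib was called in both lines with opposite signs, which is 4.63% of the 1383 genes called in both. Of these, 24 were protein-coding, had a mean log2 CPM above 1 and moved alike in all same-numbered sets. The largest differences among them were those of GRAMD1B, ABCG2, PXDN, WNT10B, DKK1 and CAMK2B.

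GRAMD1B (chromosome 11, 123358428 to 123627774), which encodes a cholesterol transfer protein, was at 0.554, 0.474 and 0.279 CPM in untreated and at 6.73, 6.81 and 5.1 CPM in treated NCI-N87 cells. Untreated MKN7 cells had 52.5, 32.7 and 106 CPM and treated ones 15.5, 12 and 16.8 CPM. The groups were separate in both lines, with the highest value in the library that stood apart. The difference was 5.93 (SE 0.67, adjusted p = 7.09e-09) and 5.34 without that library. PXDN, a peroxidase of the extracellular matrix, rose from 1.85, 1.51 and 1.22 to 8.37, 5.05 and 5.88 CPM in NCI-N87 cells and fell from 3.02, 3.76 and 4.47 to 0.956, 0.941 and 0.879 CPM in MKN7 cells (difference 4.08, SE 0.35). CAMK2B, a calmodulin-dependent kinase, had a log2FC of 1.47 in NCI-N87 cells, where it stayed at or under 1.86 CPM, and of -2.07 in MKN7 cells (difference 3.54, SE 0.34).

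ABCG2 (chromosome 4, 88090264 to 88231322), a drug efflux transporter, moved the other way. It was at 1.24, 1.49 and 1.27 CPM in untreated and at 0.235, 0.164 and 0.264 CPM in treated NCI-N87 cells. The MKN7 libraries were at 37.9, 30.2 and 24 CPM without and at 95.7, 81 and 107 CPM with afatinib. The log2FC was -2.58 and 1.62, a difference of -4.20 (SE 0.34, adjusted p = 2.08e-12). WNT10B, a WNT ligand, fell from 7.71, 7.41 and 8.71 to 1.12, 1.06 and 1.11 CPM in NCI-N87 cells and rose from 2.5, 2.8 and 1.49 to 4.76, 5.45 and 4.58 CPM in MKN7 cells (difference -3.97, SE 0.38). DKK1 (chromosome 10, 52314296 to 52318042), a secreted inhibitor of WNT receptors, fell from 56.6, 73.4 and 54.3 to 12, 11.4 and 13.1 CPM in NCI-N87 cells. It rose in MKN7 cells from 198, 169 and 159 to 495, 483 and 479 CPM. Its difference was -3.81 (SE 0.24, adjusted p = 3.04e-15).

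**Figure D4:**
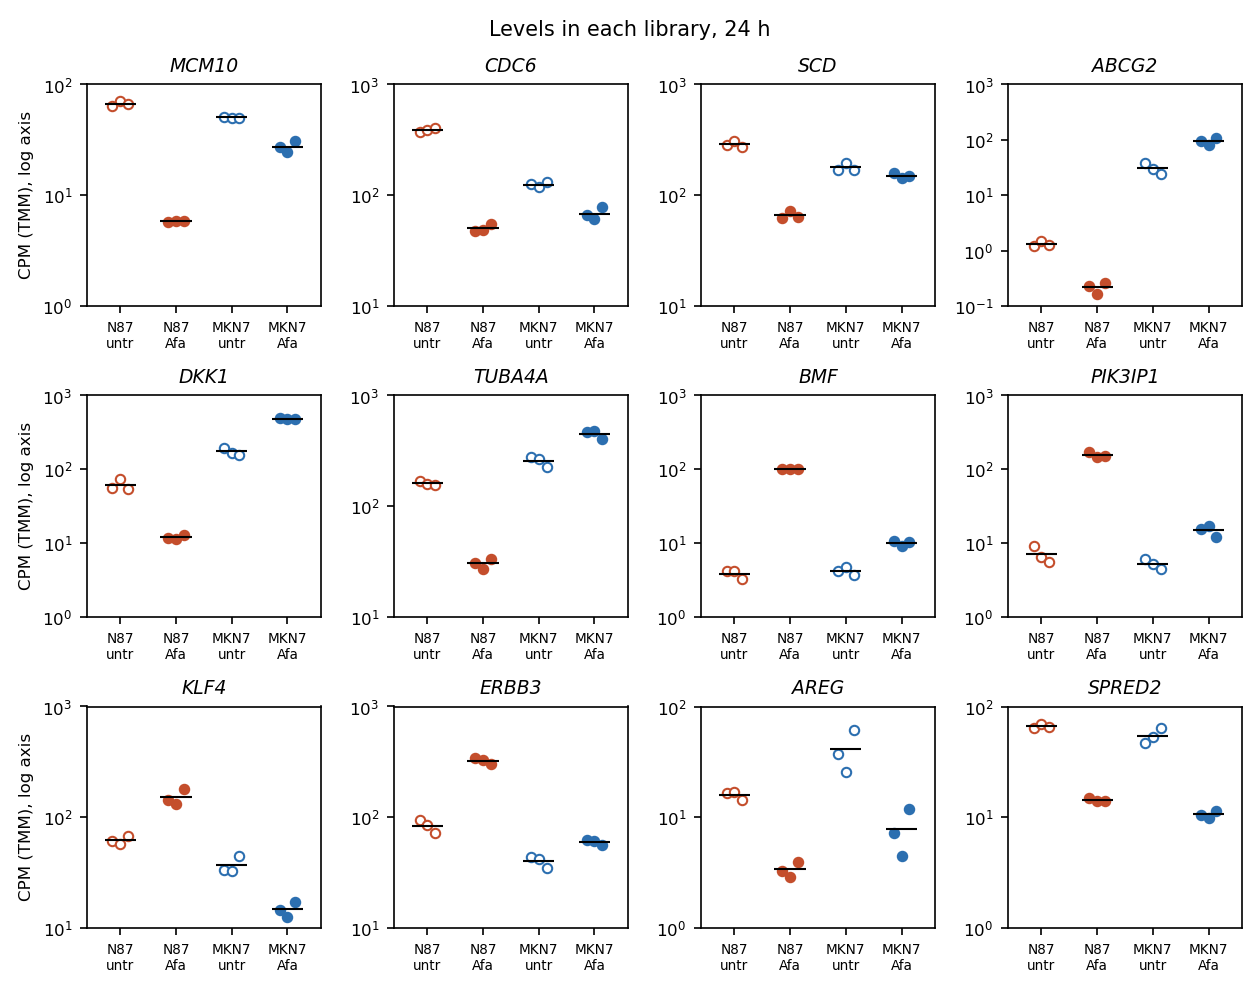
CPM (TMM) on a log axis for 12 genes in each library at 24 h; open points are untreated and filled points afatinib-treated libraries, in replicate order, and bars are means of 3. ABCG2 and DKK1 move in opposite directions in the 2 lines, MCM10, CDC6 and SCD fall further in NCI-N87 cells, and AREG and SPRED2 fall alike.

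Among the other genes with large positive differences, KCNIP3 (3.23), BNIPL (3.15) and the glutamate transporter SLC1A1 (3.07) rose in NCI-N87 cells and were not called in MKN7. ADAM12, a metalloproteinase (difference 3.11), rose in NCI-N87 and fell in MKN7 cells. The phosphodiesterase PDE2A had a difference of 3.19, and of 2.37 without untreated MKN7 replicate 3. BCAS1 rose in NCI-N87 cells (log2FC 4.29), where its level after afatinib was 155, 121 and 109 CPM. In MKN7 cells BCAS1 stayed at or under 0.187 CPM, so its difference of 3.99 rests on few counts there. It missed the FDR without untreated MKN7 replicate 3 (3.54, adjusted p = 0.103), without all MKN7 libraries of that number (3.73, adjusted p = 0.113) and without those of number 2 (3.67, adjusted p = 0.0673). CST1, a cystatin with close relatives, had a difference of 3.47. It was 2.70 without untreated MKN7 replicate 3 and did not pass without all MKN7 libraries of that number (2.39, adjusted p = 0.122).

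Among those with large negative differences, TUBA4A, an alpha tubulin, fell from 171, 159 and 155 to 30.6, 27.5 and 33.8 CPM in NCI-N87 cells. Levels in MKN7 cells were 281, 266 and 226 CPM before and 464, 474 and 407 CPM after treatment. The log2FC was -2.40 and 0.80, and the difference was -3.20 (SE 0.16, adjusted p = 3.49e-18). How reads shared by near-identical genes such as the tubulins were counted is not given in the sources used here. The cation-chloride transporter family member SLC12A8 (-3.26), SH3TC1 (-3.37) and TENM3 (-3.17) fell in NCI-N87 and rose in MKN7 cells. BMP6, a ligand of the BMP family (-3.86), and NAV3 (-3.51) fell in NCI-N87 cells and were not called in MKN7. The difference of NAV3 was -4.11 without untreated MKN7 replicate 3. MUC5AC, a gel-forming mucin of the gastric surface, fell from 135, 171 and 115 to 12.7, 16.9 and 11.4 CPM in NCI-N87 cells (log2FC -3.36). It stayed at or under 0.446 CPM in MKN7 cells, and VWA2 likewise at or under 0.429 CPM, so that their differences of -4.15 and -3.21 rest on few counts in that line.

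No difference was called for ERBB2, EGFR and ERBB4, the targets of afatinib. ERBB2 (chromosome 17, 39687914 to 39730426) was at 14294, 14741 and 12575 CPM in untreated and at 22873, 22218 and 20847 CPM in treated NCI-N87 cells. In MKN7 cells it was at 5155, 5050 and 3717 CPM and, after afatinib, at 7080, 7176 and 6512 CPM. The log2FC was 0.66 and 0.58, under the limit of 1, and the difference was 0.09 with a 95% interval from -0.25 to 0.42. EGFR had a log2FC of -1.26 in NCI-N87 and of -0.81 in MKN7 cells, a difference of -0.45 (SE 0.21, adjusted p = 0.103). ERBB4 was at 0.286, 0.392 and 0.193 CPM in untreated and at 0.705, 0.401 and 0.207 CPM in treated NCI-N87 cells. The MKN7 libraries were at 8.24, 10.5 and 8.26 CPM without and at 13.1, 12.4 and 13.3 CPM with afatinib. At these levels the 95% interval of its difference (0.07) ran from -1.16 to 1.3, which leaves room for a change past the limit. ERBB3, the kinase-impaired partner of ERBB2, was at 95.7, 85.1 and 71.6 CPM in untreated and at 343, 326 and 301 CPM in treated NCI-N87 cells. Untreated MKN7 cells had 44.2, 42.1 and 34.9 CPM and treated ones 63.2, 61.2 and 55.9 CPM. The difference of ERBB3 of 1.37 (SE 0.16, adjusted p = 2.48e-08) was called. Of the ligands, BTC had a called positive difference (1.17) and EREG a negative one (-1.05, adjusted p = 0.0327), which was -0.98 with the replicate number as a block and then lay under the limit. These were the 3 calls among 15 receptors and ligands, a share of 20% against 11.1% of all genes.

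A response was shared where both lines were called with the same sign and the interval of the difference lay within -1 and 1. AREG, another ligand of EGFR, had one of the largest falls among such protein-coding genes. It was at 16.5, 17.1 and 14.4 CPM in untreated and at 3.27, 2.93 and 3.99 CPM in treated NCI-N87 cells. The MKN7 libraries were at 37.6, 25.9 and 61.6 CPM without and at 7.27, 4.46 and 11.8 CPM with afatinib. The log2FC was -2.23 and -2.42, and the interval of the difference ran from -0.62 to 0.99. SPRED2, an inhibitor of the MAPK cascade (-2.20 and -2.35), and NT5E, an ectonucleotidase (-2.81 and -2.87), fell alike as well. Without untreated MKN7 replicate 3 the difference of NT5E was -0.46, against 0.06 with it. NKAIN4 (2.60 and 2.69), SYNPO (2.21 and 2.14) and PATL2 (2.14 and 2.0) rose alike.

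Most MAPK target and feedback genes fell in both lines. Of 19 tested, 16 were called lower in NCI-N87 and 15 in MKN7 cells, against 9.19% and 3.01% of all genes. The medians were -2.20 and -1.80. The difference was called for 4, a share of 21.1% against 11.1% of all genes. The phosphatase gene DUSP4 (-2.25), the receptor gene EPHA2 (-1.65) and FOSL1 (-1.31) fell further in NCI-N87 cells and PHLDA1 (1.48) fell further in MKN7 cells. With the replicate number as a block 5 differences were negative, and without untreated MKN7 replicate 3 there were 6. SPRY4 had the largest log2FC values of the list (-5.95 and -5.08), and the interval of its difference ran from -2.18 to 0.44. DUSP6 (-5.37 and -4.13) had an interval from -2.64 to 0.15, and a called difference of -2.14 without untreated MKN7 replicate 3. Of the 14 genes near ERBB2 on chromosome 17, the adaptor gene GRB7 had a called positive difference (1.54, SE 0.29), a share of 7.14% against 11.1% of all genes. It was at 1780, 1418 and 799 CPM in untreated and at 5306, 4255 and 3897 CPM in treated NCI-N87 cells, and at 177 to 323 CPM in MKN7 cells. With the block, as without untreated MKN7 replicate 3, 2 of the 14 were called.

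The list of PI3K and FOXO genes holds FOXO factors, FOXO targets and an inhibitor of PI3K, but also genes that feed PI3K, such as INSR and IGF1R. In it, the difference was called for 4 of 15 genes, each positive, against 6.2% of all genes. With the FDR alone 6 were positive and 0 negative, against 14.1% and 13.8% of all genes, and the differences ran from -0.34 to 2.94. PIK3IP1, an inhibitor of PI3K, was at 9.34, 6.48 and 5.68 CPM in untreated and at 173, 147 and 154 CPM in treated NCI-N87 cells. Levels in MKN7 cells were 6.06, 5.27 and 4.51 CPM before and 15.8, 17.4 and 12.2 CPM after treatment. It rose in both lines, with a difference of 2.94 (SE 0.25, adjusted p = 7.88e-12). The differences of IRS1, CCNG2 and TXNIP were 2.16, 2.03 and 1.46. IRS1, the docking protein of the insulin receptor, rose in NCI-N87 (log2FC 1.08) and fell in MKN7 cells (-1.08). The cell cycle inhibitor CDKN1B had a difference of 0.32 (adjusted p = 0.075). In the MYC network, MYC fell in both lines (log2FC -1.90 and -1.45), and MXD4, which competes with MYC for its partner MAX, had a called difference of 2.21 (log2FC 2.65 in NCI-N87 and 0.44 in MKN7).

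Genes of cell death differed at a few members. BMF (chromosome 15, 40087890 to 40108892), a pro-apoptotic BH3-only member of the BCL2 family, was at 4.24, 4.17 and 3.32 CPM in untreated and at 102, 100 and 101 CPM in treated NCI-N87 cells. In MKN7 cells it was at 4.19, 4.72 and 3.75 CPM and, after afatinib, at 10.8, 9.33 and 10.5 CPM. The untreated libraries of the 2 lines overlapped, and the treated ones were far apart. The difference was 3.41 (SE 0.18, adjusted p = 5.43e-17). Of 14 genes of the BCL2 family, the BH3-only genes BMF, BBC3 (1.18) and BIK (1.02) had positive and HRK (-1.5) a negative difference. These were the calls of the list, a share of 28.6% against 11.1% of all genes. Without untreated MKN7 replicate 3, BMF alone was called in this list, with BBC3 at 0.99 and BIK at 0.81. BCL2L11, another BH3-only gene, had a difference of 0.25 (interval 0.01 to 0.50), and the survival gene MCL1 of 0.32 (adjusted p = 0.134). Of 17 death receptor and caspase genes, TNFSF10 (TRAIL) was called, a share of 5.88% against 11.1% of all genes. It rose from 12.6, 8.7 and 6.6 to 204, 153 and 152 CPM in NCI-N87 cells and was at 0.35 to 1.07 CPM in MKN7 cells. Its difference was 2.97 (SE 0.50, adjusted p = 1.26e-05). Of 20 p53 targets, 3 had a positive and 2 a negative called difference, a share of 25% against 11.1% of all genes. BTG2 was at 2.53 and AEN at -1.62.

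Chemokines and motility genes differed in both directions. Of 17 cytokine genes tested, 4 had a called positive and 4 a negative difference, a share of 47.1% against 11.1% of all genes. CXCL8, a chemoattractant for neutrophils, was at 9.64, 7.67 and 3.84 CPM in untreated and at 0.47, 0.255 and 0.132 CPM in treated NCI-N87 cells. Untreated MKN7 cells had 17.5, 9.17 and 24.7 CPM and treated ones 8.84, 3.76 and 6.51 CPM, a difference of -3.18 (SE 0.71, adjusted p = 0.000656). The cytokine genes IL1A, IL1B and IL11 fell in MKN7 cells (log2FC -3.20, -3.11 and -2.33) and were not called in NCI-N87. Their values in untreated MKN7 replicate 3 were above those of the other replicates, and without it the differences were 1.84 for IL1A (adjusted p = 0.0644), 1.93 for IL1B and 1.42 for IL11, against 2.87, 2.52 and 2.16 with it. Of 26 genes for motility and matrix, 3 had a positive and 4 a negative called difference, a share of 26.9% against 11.1% of all genes. F3, the tissue factor gene, fell from 106, 102 and 97.5 to 10.9, 8.2 and 9.48 CPM in NCI-N87 cells. The MKN7 libraries were at 1114, 1117 and 1114 CPM without and at 717, 663 and 696 CPM with afatinib (difference -2.73, SE 0.19). HAS2, which makes hyaluronan, fell from 14.7, 14.6 and 15.5 to 0.326, 0.291 and 0.207 CPM in NCI-N87 cells and was at or under 0.159 CPM in MKN7 cells. The hyaluronan receptor CD44 (1.57), the integrin subunit ITGA2 (1.61) and the transcription factor ETS1 (1.88) had positive differences. CD44 and ETS1 fell in MKN7 cells (log2FC -1.91 and -1.89) and were not called in NCI-N87, and ITGA2 fell in both lines. ITGA2 had 8420, 8857 and 19140 counts in untreated MKN7 replicates 1 to 3, so its difference rests in part on replicate 3.

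Notch, BMP and differentiation genes held further opposite changes. DLL1, a Notch ligand, was at 0.229, 0.165 and 0.15 CPM in untreated and at 1.18, 1 and 0.98 CPM in treated NCI-N87 cells. Levels in MKN7 cells were 5.06, 4.78 and 7.56 CPM before and 1.35, 1.29 and 1.53 CPM after treatment, a difference of 4.57 (SE 0.40, adjusted p = 3.09e-11). ID1, ID2 and ID3, inhibitors of basic helix-loop-helix factors and targets of BMP signalling, had negative differences of -1.07, -2.22 and -1.70. ID2 and ID3 rose in MKN7 cells (log2FC 1.47 and 1.67). Of 19 genes in this list, 2 had a positive and 5 a negative called difference, a share of 36.8% against 11.1% of all genes. Without untreated MKN7 replicate 3 the negative ones were 2. KLF4, a transcription factor of differentiating epithelium, rose from 61.9, 58.1 and 68.5 to 144, 131 and 181 CPM in NCI-N87 cells and fell from 33.4, 33 and 44.7 to 14.6, 12.7 and 17.1 CPM in MKN7 cells (difference 2.60, SE 0.20, adjusted p = 5.64e-13). Of 25 differentiation genes, 2 had a positive and 3 a negative called difference, a share of 20% against 11.1% of all genes. The median difference of this list was 0.19. GATA6, a transcription factor of the gastric epithelium, rose in MKN7 cells alone (difference -1.23).

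The same difference was measured again in libraries that the comparison above did not use. In these, afatinib was added to trastuzumab (5 μg/ml), an antibody against HER2, and trastuzumab + afatinib was compared with trastuzumab alone at 24 h, with 3 replicates per group. These libraries carry the same replicate numbers, which pair the samples, and were fitted in the same model, so the sets are not independent. The difference between NCI-N87 and MKN7 cells was called for 2088 genes (10.1%), 1243 of them positive (5.99%) and 845 negative (4.07%). Of the 2312 genes called without trastuzumab, 1486 were called here too, which is 64.3% of the former and 71.2% of the latter list, and all 1486 had the same sign. Across the 2312 genes Pearson's r of the differences was 0.91, given as a description, since genes are not independent. In the DNA replication list 23 genes were called, all negative (median -1.30). In the mitosis list 1 gene was called, the median was -0.36, and 18 of 34 passed the FDR alone with a negative sign, against 12.9% of all genes. MCM10 had a difference of -2.68, DKK1 of -3.27, ABCG2 of -3.09 and PXDN of 3.97. The difference of BMF was 2.62 and that of ERBB2 0.13.

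**Figure D5:**
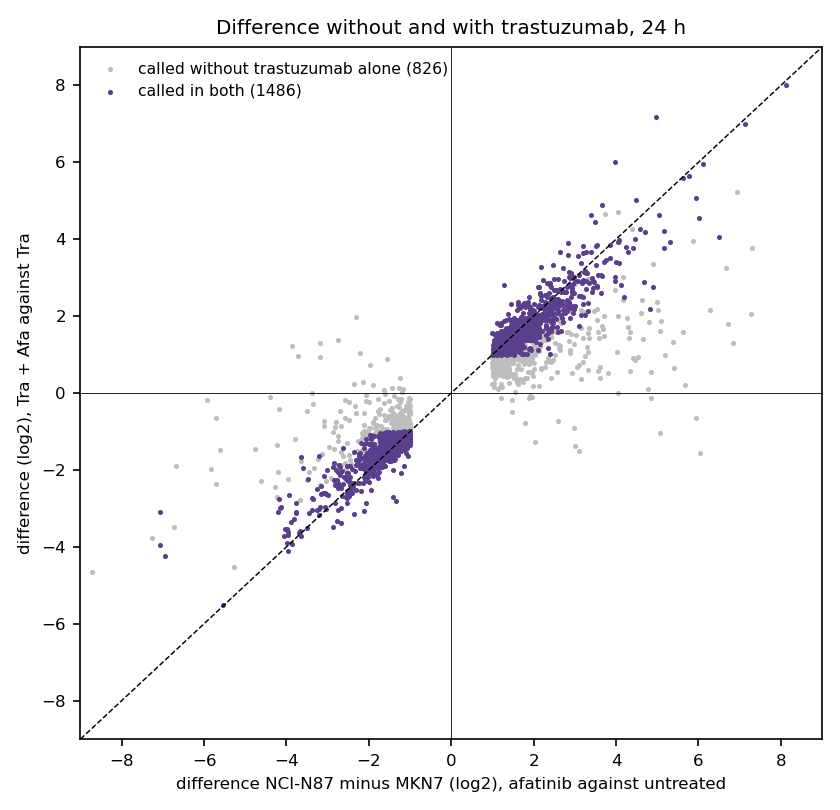
Difference in the response to afatinib (log2, NCI-N87 minus MKN7, 24 h) without trastuzumab (x axis) and on top of trastuzumab (y axis) for the 2312 genes called without it. The 1486 genes called in both (purple) lie in the same quadrants, all with the same sign, and the dashed line marks equal differences.

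After 4 h, few responses differed between the lines. The difference was called for 103 genes (0.497% of those tested), 64 positive (0.309%) and 39 negative (0.188%), and for 156 and 129 with the replicate number as a block. Of the 103 genes, 68 (66%) were called at 24 h as well, and all 68 had the same sign, which makes up 2.94% of the genes called at 24 h. In the lists for DNA replication, nucleotide synthesis, mitosis and ribosome biogenesis 0 genes were called at 4 h, against 0.497% of all genes. At that share, 0 calls in lists of this size say little about them. Their medians ran from -0.11 to -0.06, beside 0.01 for all genes. Of the MAPK targets 1 gene was called, DUSP4 (-1.06). MCM10 had a difference of -0.54 (SE 0.11, adjusted p = 0.00316), under the limit of 1. BMF was called at 4 h with a difference of 2.49 (SE 0.19, log2FC 3.6 in NCI-N87 and 1.11 in MKN7), and TNFSF10 with 2.21. DKK1 had a difference of -2.32 (SE 0.23), CXCL8 of -3.24 (SE 0.62), F3 of -2.06 and WNT10B of -1.59. DLL1, IRS1, KLF4 and DDIT4 were called as well (2.44, 1.55, 1.28 and 1.64). ABCG2 (-0.58, adjusted p = 0.464) was not called at 4 h.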

How the data were processed

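Strand-specific libraries of purified mRNA were read from both ends, and what the authors deposited are unnormalized read counts, with a row for every Ensembl gene. The submitters' processing notes name Trim Galore, STAR and hg38, and the counting tool and its strand setting are not given in the sources used here. Gene names came from GENCODE 29 on GRCh38. It has no entry for 8404 of the 65217 identifiers, which hold 0.0512% of the counts. Of 539 genes in 24 lists, 53 were not tested, and 33 of them, CDK2 and XBP1 included, are listed at 0 in all 12 libraries. Genes that most cells use are among them, so a listed 0 was taken as untested and not as absence.

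Tests used edgeR 4.0.16 under R 4.3.3 (TMM, filterByExpr with min.count 10 and min.total.count 15, glmQLFit, glmQLFTest). All 48 libraries of MKN7 and NCI-N87 cells were fitted together with 1 mean per cell line, treatment and time point, and differences were tested as interaction contrasts. The 84 libraries of other cell lines were not used. Intervals are 95% intervals from the fitted SE and its degrees of freedom. The script was tested on simulated data. Libraries of 48 replicate pairs differed by at least 14.4 times the Poisson expectation, and 0 pairs were identical. Total counts ranged from 38788878 to 64737674 over the 48 libraries.

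Named genes were protein-coding with a mean log2 CPM above 1 and a difference of 1 sign in each of the 3 same-numbered sets. They were the 12 largest called differences in each direction, the 6 largest among genes called with opposite signs, and for the shared response the 3 largest rises and 3 largest falls. The shared response held genes called in both lines with the same sign and an interval of the difference within -1 and 1. List members and ERBB2, EGFR and ERBB3 were named as well. The comparison, the lists and this rule were chosen with earlier results of these data known.

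The labels number the replicates 1 to 3. Deviations from the group mean were correlated between same-numbered libraries of a line and time point (r at least 0.26 in every pair, mean 0.61 for NCI-N87 and 0.69 for MKN7 at 24 h). The numbers were thus taken to pair the samples, but the main fit did not use the pairing. With the block, called negative differences were 7 for cholesterol and fatty acid synthesis and 4 for epithelial junction and mesenchymal genes. Called positive and negative differences were then 4 and 5 for motility and matrix, 4 and 5 for cytokines, and 3 and 4 for differentiation. Other changes with the block are given with the genes. Alternatives were DESeq2 1.42.0, other scalings and filters, the compared groups alone, the replicate block and leaving out replicates. TMM within each line, another TMM reference, a fit without untreated MKN7 replicate 3 and a minimum of 1 CPM in both lines were chosen after seeing the data. Figures used Python 3.11.15 and matplotlib 3.10.9.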

Additional observations from a re-analysis of the deposited data

Results flagged for a closer look

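The response to afatinib differed between the cell lines by a test of the difference itself (interaction contrast in edgeR) for 1286 genes in the positive and 1026 genes in the negative direction at 24 h. On top of trastuzumab the numbers were 1243 and 845, and at 4 h they were 64 and 39. Among genes called with opposite signs in the lines at 24 h, the named ones had differences of 5.93 (GRAMD1B), -4.20 (ABCG2), 4.08 (PXDN), -3.97 (WNT10B), -3.81 (DKK1) and 3.54 (CAMK2B). With 3 libraries in each group, no test for a single outlying library was made.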

How the results depend on the processing

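Both counts of the 24 h difference stayed within 1.5 times the reported ones under DESeq2, every scaling tried, the fit of the compared groups alone, the replicate block and each left-out replicate. With at least 10 counts required in every library, positive differences were 740, those on top of trastuzumab 812, rises in NCI-N87 cells 1949, and rises and falls in MKN7 cells 964 and 333. This filter removes genes that are low in either state. Among genes with at least 1 CPM in both lines, 606 differences were positive and 668 negative. Positive differences made up 55.6% of those called, 46.1% under the filter of 10 counts, 46% with an NCI-N87 reference for TMM and 42.1% to 55.7% when a replicate was left out. The cause of these shifts was not tested. On top of trastuzumab, leaving out a replicate gave 798 to 1090 positive differences, with 811 without NCI-N87 replicate 2, 798 without MKN7 replicate 1 and 817 without MKN7 replicate 2, against 1243 without untreated MKN7 replicate 3, a library outside that comparison. At 4 h it gave 36 to 59 positive differences (42 and 36 without MKN7 replicates 2 and 3) and 22 to 34 negative ones (24 and 22 without NCI-N87 replicates 1 and 3, and 22 without MKN7 replicate 3). At 4 h the replicate block gave 156 and 129, and DESeq2 gave 66 negative differences. At 24 h the block gave 1534 positive and 1198 negative differences, and of the named and listed genes called without it EREG lost its call. No named or listed gene called in the report changed sign. Levels near 1 CPM or below in at least 1 group limit the differences of BCAS1, MUC5AC, VWA2, HAS2, KIT, TFF1, GRAMD1B, ABCG2, CXCL8, DLL1, CAMK2B, PXDN, IL1A, IL1B, TNFSF10, WNT10B, ERBB4, PTPRC and COL3A1, among others.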

Other observations

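Epithelial junction and mesenchymal genes held 3 called negative differences among 19 tested and 0 positive ones, a share of 15.8% against 11.1% of all genes. Fibronectin (FN1) fell in NCI-N87 cells, from 263, 229 and 230 to 121, 95 and 86.5 CPM, and was at 523, 580 and 369 CPM in untreated and 655, 632 and 395 CPM in treated MKN7 cells (difference -1.45, SE 0.30, adjusted p = 0.00031). The transcription factor SNAI1 had a difference of -1.35. SNAI2 (-1.48, adjusted p = 0.0493) was not called without untreated MKN7 replicate 3 (-1.29, adjusted p = 0.0942).

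Among other receptor tyrosine kinases, MET fell in NCI-N87 cells from 313, 327 and 337 to 151, 152 and 157 CPM. For MKN7 cells the values were 190, 181 and 163 CPM without and 197, 197 and 148 CPM with afatinib, a difference of -1.11 (SE 0.16, adjusted p = 5.75e-07). ROR1, an orphan receptor, had a difference of -1.21, and EPHA2 is given above with the MAPK targets. KIT was called with a positive difference but stayed at or under 0.109 CPM in NCI-N87 cells, so this value rests on few counts. Of 22 genes tested, 3 had a negative and 1 a positive called difference, a share of 18.2% against 11.1% of all genes.

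Of 22 tested genes of the interferon response and MHC class I, CIITA was called (1.37, adjusted p = 0.0441), a share of 4.55% against 11.1% of all genes. Its call was lost without untreated MKN7 replicate 3 (adjusted p = 0.0593). Of 20 genes for lysosome and autophagy, 0 were called, against 11.1% of all genes. At an FDR below 0.05, 4 were positive and 2 negative, against 14.1% and 13.8% of all genes. With the replicate block 1 was called in each direction, and in a fit of the 4 compared groups 1 negative one. Of the differentiation genes, TFF1 (difference 4.48, and 3.86 without untreated MKN7 replicate 3) stayed at or under 0.253 CPM in NCI-N87 cells. The epithelial marker KRT18 had a called difference of -1.04, falling from 3195, 2813 and 3204 to 967, 715 and 996 CPM in NCI-N87 cells.

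The difference was called for 1659 of 14827 protein-coding genes (11.2%), for 262 of 2167 lincRNA genes (12.1%) and for 159 of 1431 antisense genes (11.1%). Of the 2312 called genes, 176 (7.61%) had a group with at most 3 counts in every library, 117 of them with a positive difference.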
